A study of Mus musculus with 3 samples.

Results

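Keratins are the intermediate filament proteins of epithelial cells. A type I and a type II keratin pair to build each filament, and the pair in use marks the epithelium: Krt5 with Krt14 in basal keratinocytes, Krt1 with Krt10 in the layers above them, Krt8 with Krt18 in simple epithelia, and further sets in the inner root sheath and the shaft of the growing hair. Keratin loci were described here from single-nucleus ATAC-seq, which measures how open the chromatin is and not how much RNA or protein is made. All protein-coding mouse genes whose symbol is Krt followed by a number and an optional letter were taken, which gave 53 of 21900 protein-coding genes of the annotation. Of these, 27 lie on chromosome 11 and 26 on chromosome 15. They were grouped by known role into 23 epidermal, 5 simple, 7 inner root sheath and 15 hair keratins, with 3 genes (Krt222, Krt88 and Krt90) in no group. The group called epidermal is broad. It took in Krt75, Krt79, Krt80, Krt23 and Krt24, known from follicle epithelium. It also held Krt4, Krt13, Krt76, Krt78, Krt12 and Krt42, listed under mucosal, corneal and other roles. A feature is a 500 bp region with counts, and 43 of the 53 genes had at least 1 within the gene body plus 2 kb. The other 10 (Krt9, Krt18, Krt24, Krt33b, Krt34, Krt6b, Krt75, Krt76, Krt82 and Krt90) had none and carry no value below.

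The mice carried Dct-rtTA; Tre-H2B-GFP. The promoter of Dct, a pigment cell gene, drives rtTA, which turns on nuclear GFP when doxycycline is given, and GFP+ nuclei were sorted from back skin. Anagen (8 mice) followed depilation with Nair, UVB skin (24 mice) was irradiated 3 times at 2.2 mJ/cm2, and telogen skin (12 mice) had neither, with 5 days of doxycycline (20 mg in 100 ml of drinking water) in every group. Mice were 7 weeks old in the protocol text and 8 weeks in the sample characteristics. Each condition was 1 pool of mice, so differences between conditions could not be tested against replicates, and 95% intervals reflect counting alone. Anagen and telogen mice shared a library, whereas UVB nuclei came from 2 other libraries, titled as pools A and B, of which the labels describe B as a technical repeat of a 24-mouse pool. The counts of both stand in 1 table with no map of nuclei to library, so an effect of UVB and one of library cannot be told apart. After repeat copies of a barcode were set aside (1721 in anagen, 62 in UVB, 543 in telogen), there were 3753 anagen, 6553 UVB and 2042 telogen nuclei with 10397896, 16182770 and 5225945 counts. Across conditions, 506 barcodes occurred more than once. Barcodes carry tag numbers whose meaning the labels do not give, and UVB tag number 19 held 2934 nuclei.

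The sort was not pure for pigment cells. Clusters named from marker genes without keratins called 29.6% of anagen, 44.8% of UVB and 11.1% of telogen nuclei melanocyte-like. Keratinocyte-like nuclei made up 8.77% of anagen (95% exact binomial interval 7.88% to 9.72%), 22.3% of UVB (21.3% to 23.3%) and 21.6% of telogen nuclei (19.9% to 23.5%). UVB tag number 19 held 1122 of the 1460 UVB keratinocyte-like nuclei, so UVB values of this class rest mostly on it. The share was 38.2% in that tag number. The median share over tag numbers with at least 50 nuclei was 9.05% in anagen, 14.1% in UVB and 25.0% in telogen. Keratinocyte-like nuclei fell into 3 clusters. Genes most raised in cluster 3 included Casp14, Asprv1 and Krtdap, known from differentiating epidermis. Those of cluster 7 included Krtap11-1, Cldn8 and Sdr16c6, and its sebocyte markers were also raised, with a median of 0.83 on the log2 scale against 1.31 for keratinocyte markers. In cluster 10 they included Dlx3 and Hoxc13, regulators known from hair-forming epithelium, and Dsg3, a desmoglein of stratified epithelium. Marker lists did not split the clusters cleanly. Differentiated epidermis markers at least 2-fold above other nuclei numbered 6, 7 and 6 of 8 in clusters 3, 7 and 10 (median log2 ratios 3.35, 2.49 and 2.28), and hair follicle markers 6, 5 and 8 of 10 (1.30, 0.88 and 2.22). Keratinocyte-like nuclei were divided very unequally: cluster 10 held 71.7% of them in anagen, 9.86% in UVB and 22.6% in telogen, and cluster 3 held 20.1%, 55.3% and 56.1% in the same order of conditions. Their median depth was 1129 counts in anagen, 1676 in UVB and 2468 in telogen.

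Promoters of 6 keratins are printed for their levels in the 3 clusters: Krt5 was open in all 3, Krt10 and Krt77 were highest in cluster 3, Krt79 in cluster 7 and Krt27 in cluster 10. Krt28 stands beside its neighbour Krt27, with only 24 counts in the class, 3, 7 and 14 of them in clusters 3, 7 and 10. Each run is the 250 bases before the start site from RefSeq (GRCm38.p6), written 5′ to 3′ on the minus strand on which all 6 genes lie. Capitals mark matches, on either strand, to TATAAA (the TATA box) or AANCCAAA (an octamer described at keratin genes).
Krt5, chr15:101712906-101713155: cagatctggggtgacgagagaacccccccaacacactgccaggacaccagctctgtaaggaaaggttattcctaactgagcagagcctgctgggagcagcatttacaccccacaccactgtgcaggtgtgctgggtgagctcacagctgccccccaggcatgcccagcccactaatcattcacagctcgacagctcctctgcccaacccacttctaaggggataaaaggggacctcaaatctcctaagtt
Krt10, chr11:99389365-99389614: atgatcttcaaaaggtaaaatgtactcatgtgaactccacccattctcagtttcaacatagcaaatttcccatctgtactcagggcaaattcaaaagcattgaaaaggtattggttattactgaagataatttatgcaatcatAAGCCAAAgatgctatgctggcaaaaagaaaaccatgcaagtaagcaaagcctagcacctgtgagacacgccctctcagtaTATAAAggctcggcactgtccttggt
Krt77, chr15:101869706-101869955: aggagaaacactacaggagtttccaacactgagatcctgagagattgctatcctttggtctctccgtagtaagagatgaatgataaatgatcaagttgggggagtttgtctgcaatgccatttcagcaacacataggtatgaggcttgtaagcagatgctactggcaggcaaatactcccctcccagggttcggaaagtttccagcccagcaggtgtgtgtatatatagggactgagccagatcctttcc
Krt79, chr15:101940325-101940574: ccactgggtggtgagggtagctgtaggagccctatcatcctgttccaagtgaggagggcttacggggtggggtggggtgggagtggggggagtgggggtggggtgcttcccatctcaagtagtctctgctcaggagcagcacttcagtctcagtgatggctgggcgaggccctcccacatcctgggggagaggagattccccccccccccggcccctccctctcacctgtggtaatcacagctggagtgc
Krt28, chr11:99374904-99375153: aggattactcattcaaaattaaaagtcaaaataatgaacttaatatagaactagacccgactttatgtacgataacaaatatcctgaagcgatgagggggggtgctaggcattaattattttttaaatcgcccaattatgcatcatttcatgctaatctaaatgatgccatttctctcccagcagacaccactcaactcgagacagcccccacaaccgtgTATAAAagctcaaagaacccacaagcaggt
Krt27, chr11:99351119-99351368: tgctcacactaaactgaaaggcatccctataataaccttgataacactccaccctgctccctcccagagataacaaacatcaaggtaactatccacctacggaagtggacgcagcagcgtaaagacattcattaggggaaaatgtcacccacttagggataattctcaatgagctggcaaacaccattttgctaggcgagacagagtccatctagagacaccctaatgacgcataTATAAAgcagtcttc
The Krt27 promoter is the only one of the 6 that no feature overlapped. The table's start of Krt10 lies 8085 bases inside the annotated gene.

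Promoter sequences were found for 36 of the 53 keratins. A feature overlapped 8 of them (22.2%: Krt28, Krt10, Krt20, Krt23, Krt14, Krt5, Krt77 and Krt79), against 50.8% of all 27025 promoters of that table. TATAAA occurred in 17 keratin promoters (47.2%) and in 13.0% of all promoters. With its first base 40 to 24 bases before the start, it occurred in 13 keratin promoters (36.1%) and in 2.65% of all. By group, that was 5 of 7 inner root sheath promoters, 4 of 9 hair promoters, 3 of 15 epidermal promoters and 1 of 4 simple ones. AANCCAAA occurred in 7 keratin promoters (19.4%) and 5.01% of all. The AP-2 motif GCCNNNGGC was found in 5 (13.9%) and in 13.6% of all, the AP-1 motif TGANTCA in 1 (2.78%) and in 6.87% of all, and the LEF and TCF motif CTTTGAT in 2 (5.56%) and in 3.23% of all. Both strands were searched and these motifs do not overlap in the sequences printed. A match is a description of letters and not of binding.

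Keratin loci were open mainly in the keratinocyte-like nuclei. Clustering left out keratin features, but the class was named from other genes known from keratinocytes. The pattern is therefore a description of these nuclei and not independent support for their name. Among 31 keratins with at least 30 counts, 24 were at least 2-fold more open there than in other nuclei, against 12.1% of all genes, and the median ratio was 3.25 on the log2 scale, against -0.15 over all genes. Krt14, the type I basal keratin, had 140.0 CPM (counts scaled to 1000000 counts of the nuclei in question) in keratinocyte-like nuclei and 3.86 CPM in other nuclei, a ratio of 36.3 (95% counting interval 29.5 to 45.1). Krt5, its type II partner, had 98.4 CPM in keratinocyte-like nuclei and 6.34 CPM in other nuclei. Krt12, best known from the cornea, had 13.1 CPM in keratinocyte-like nuclei and 0.153 CPM in other nuclei, a ratio of 86.0 (32.2 to 324.1) on 4 counts outside. The simple keratin Krt8 differed less, with 24.0 and 4.85 CPM. Krt222, Krt20, Krt40, Krt87, Krt81, Krt71 and Krt78 did not reach 2-fold, and Krt81 had no count in keratinocyte-like nuclei and 31 outside.

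Krt78 and Krt80 held many of the epidermal counts without being specific. Krt78 had 330.5 CPM in keratinocyte-like nuclei and 179.9 CPM in other nuclei, and Krt80 had 165.4 and 61.0 CPM. The annotated Krt78 gene is 50624 bases long with 29 features, and 99.01% of its 6570 counts lay more than 10 kb from the start in the promoter table. Group sums of epidermal keratins are therefore given with and without these 2 genes where the value differs.

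The 3 keratinocyte-like clusters differed in which keratins were open. Of 24 keratins with at least 30 counts in the class, 13 were highest in cluster 3, 3 in cluster 7 and 8 in cluster 10. The interval of the ratio of the highest to the next cluster lay above 1 for 8, 2 and 3 of them. Among these, lower ends ran from 1.01 for Krt14 to 5.01 for Krt27, and were 1.04 for Krt80 and Krt4. The highest cluster was picked from the same counts, and paired reads make the intervals too narrow, so the tally is a description. Suprabasal Krt1, which pairs with Krt10, had 42.2 CPM in cluster 3, 13.7 CPM in cluster 7 and 12.2 CPM in cluster 10. Krt10 had 78.1, 21.6 and 46.8 CPM in clusters 3, 7 and 10, and Krt77, another suprabasal keratin, had 29.7, 16.4 and 11.2 CPM. These 3 genes were most open in the cluster led by differentiation genes.

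Krt79 stood apart in cluster 7. It is known from the upper hair follicle and sebaceous duct. Krt79 had 178.7 CPM in cluster 7, 24.4 CPM in cluster 10 and 11.9 CPM in cluster 3, and cluster 7 exceeded cluster 10 by a ratio of 7.34 (4.90 to 11.4). The open regions were spread along the gene, with the highest, at chr15:101940317-101940817 over the promoter printed above, at 47.8 CPM in cluster 7.

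Of the follicle keratins, Krt27 and Krt32 were highest in cluster 10, with intervals of the highest to the next cluster above 1. Krt27, a type I keratin of the inner root sheath, the stiff tube that moulds the growing hair, had 50.6 CPM in cluster 10, 4.58 CPM in cluster 7 and 2.64 CPM in cluster 3. Cluster 10 exceeded cluster 7 by a ratio of 11.04 (5.01 to 28.8). Its 2 features lie inside the gene, 2792 and 2258 bases from the start, and none covers the promoter. The hair keratin Krt32 had 50.6 CPM in cluster 10, 25.4 CPM in cluster 3 and 17.7 CPM in cluster 7. Of the other hair keratins with at least 30 counts, Krt39 was highest in cluster 10 and Krt33a in cluster 3. Both intervals of the highest to the next cluster included 1. Krt33a had 21.8 CPM in cluster 3, 14.1 CPM in cluster 10 and 4.58 CPM in cluster 7. Krt31, with under 30 counts, had 0, 14 and 10 counts in clusters 3, 7 and 10. Basal keratins varied less: Krt14 had 153.0, 127.6 and 120.9 CPM in clusters 3, 7 and 10, and Krt5 had 113.1, 68.1 and 100.2 CPM.

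**Figure D1:**
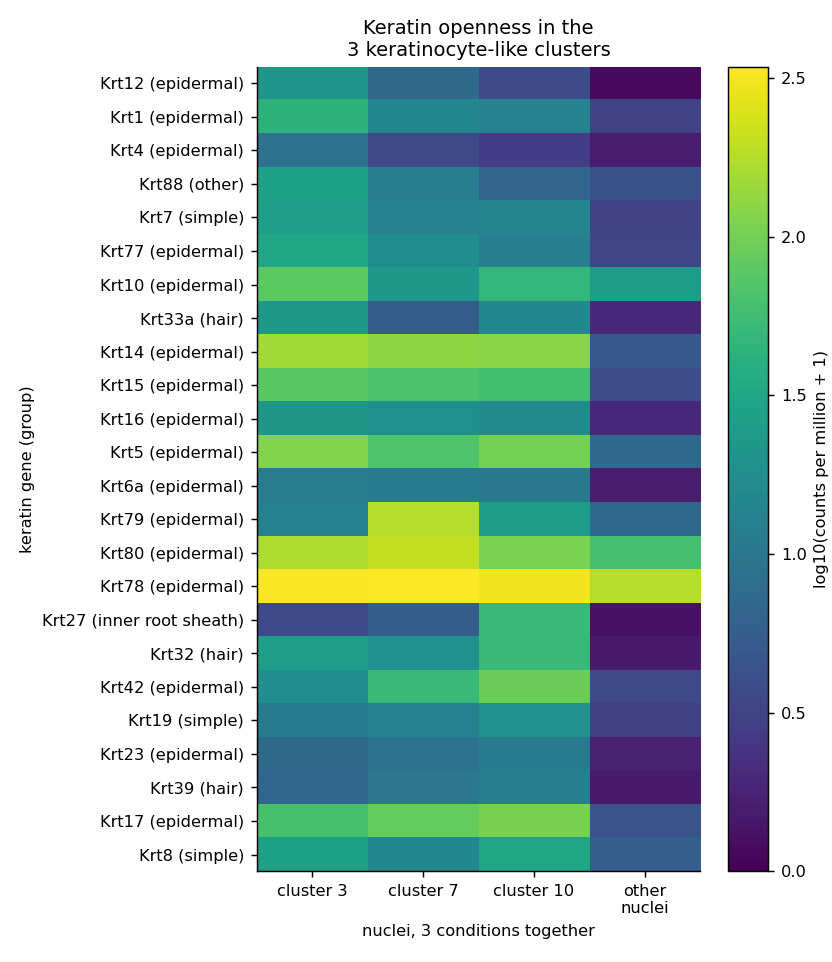
Openness of the 24 keratins with at least 30 counts in keratinocyte-like nuclei, as log10 of CPM plus 1 (colour), in clusters 3, 7 and 10 and in all other nuclei, 3 conditions together. Krt1, Krt10 and Krt77 were brightest in cluster 3, Krt79 in cluster 7 (178.7 CPM) and Krt27 in cluster 10 (50.6 CPM); Krt78 and Krt80 were also open in other nuclei.

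**Figure D2:**
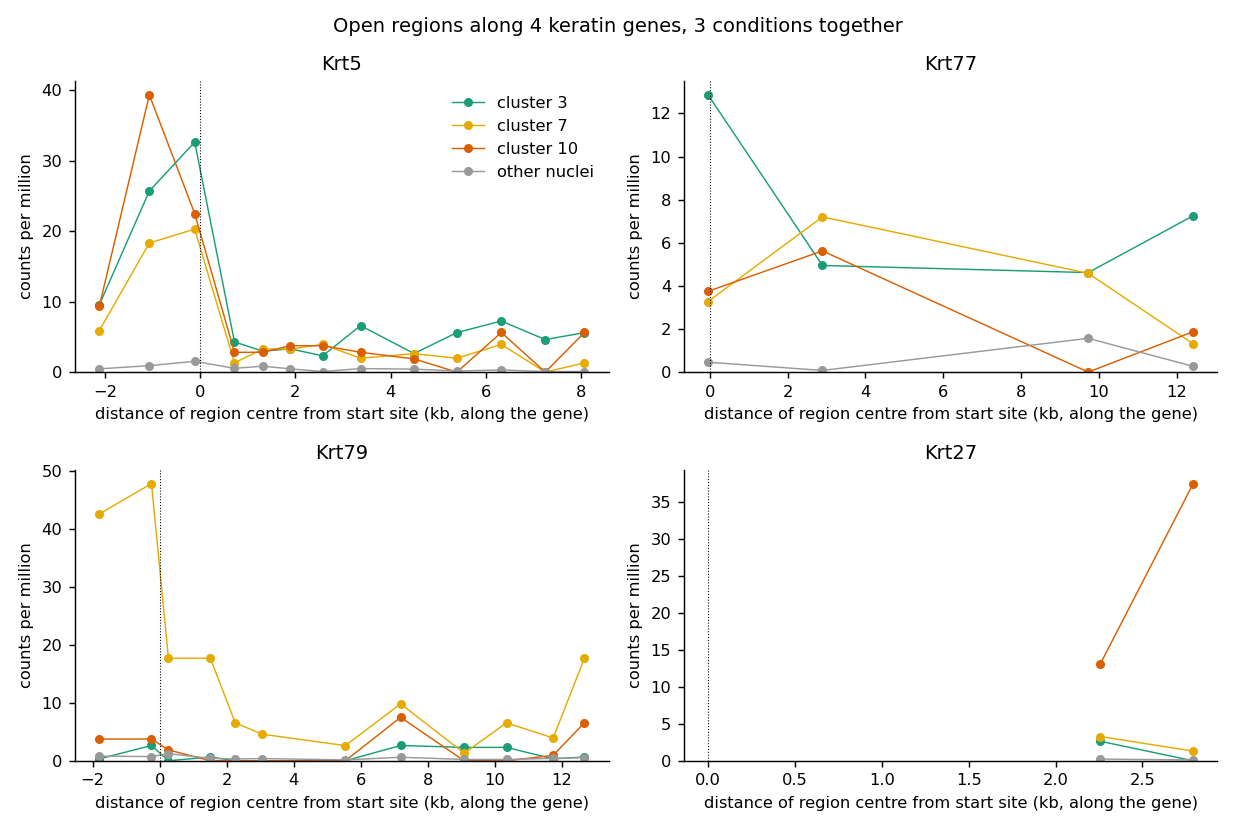
CPM at each open region of Krt5, Krt77, Krt79 and Krt27 against the distance in kb of its centre from the start site, positive along the gene. Lines join regions of a cluster and do not show values between them; Krt79 was highest in cluster 7 next to its start (47.8 CPM), and both Krt27 regions were inside the gene and highest in cluster 10.

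Over all nuclei, summed keratin openness in anagen was below telogen for the epidermal, simple and hair groups and above it for the inner root sheath group. The epidermal sum was 316.0 CPM in anagen and 612.3 CPM in telogen, a ratio of 0.516 (0.491 to 0.542), and 0.325 without Krt78 and Krt80. The simple keratins had 10.2 CPM in anagen and 33.3 CPM in telogen (ratio 0.306, 0.238 to 0.392), and hair keratins had 16.2 and 31.4 CPM (ratio 0.515, 0.413 to 0.642). The inner root sheath sum was 16.0 CPM in anagen and 4.78 CPM in telogen, a ratio of 3.34 (2.18 to 5.31). Only 2 of its 7 genes had 30 counts: Krt71 passed the 2-fold mark and Krt27 did not, with 41 anagen and 15 telogen counts (ratio 1.37, 0.744 to 2.67). Fewer keratinocyte nuclei in a sort and less openness in each cannot be told apart in these sums, and keratinocyte-like nuclei were 8.77% of anagen and 21.6% of telogen nuclei.

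By gene, 23 keratins had at least 30 counts over anagen and telogen. Of these, 14 were 2-fold or more lower in anagen, against 7.05% of all genes, and 3 (Krt20, Krt87 and Krt71) were 2-fold or more higher, against 5.74% of all genes. The median ratio was -1.78 on the log2 scale, against -0.11 over all genes. Basal Krt14 had 6.54 CPM in anagen and 55.7 CPM in telogen, a ratio of 0.117 (0.0888 to 0.153). The calls for Krt20 (25 anagen counts and 6 telogen counts) and Krt87 did not hold with every tag number left out in turn; their ratios fell to 1.43 without anagen tag number 3 and 1.52 without anagen tag number 5. Krt17 also moved to 0.533 without anagen tag number 5, whereas the other 14 called genes kept the call.

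**Figure D3:**
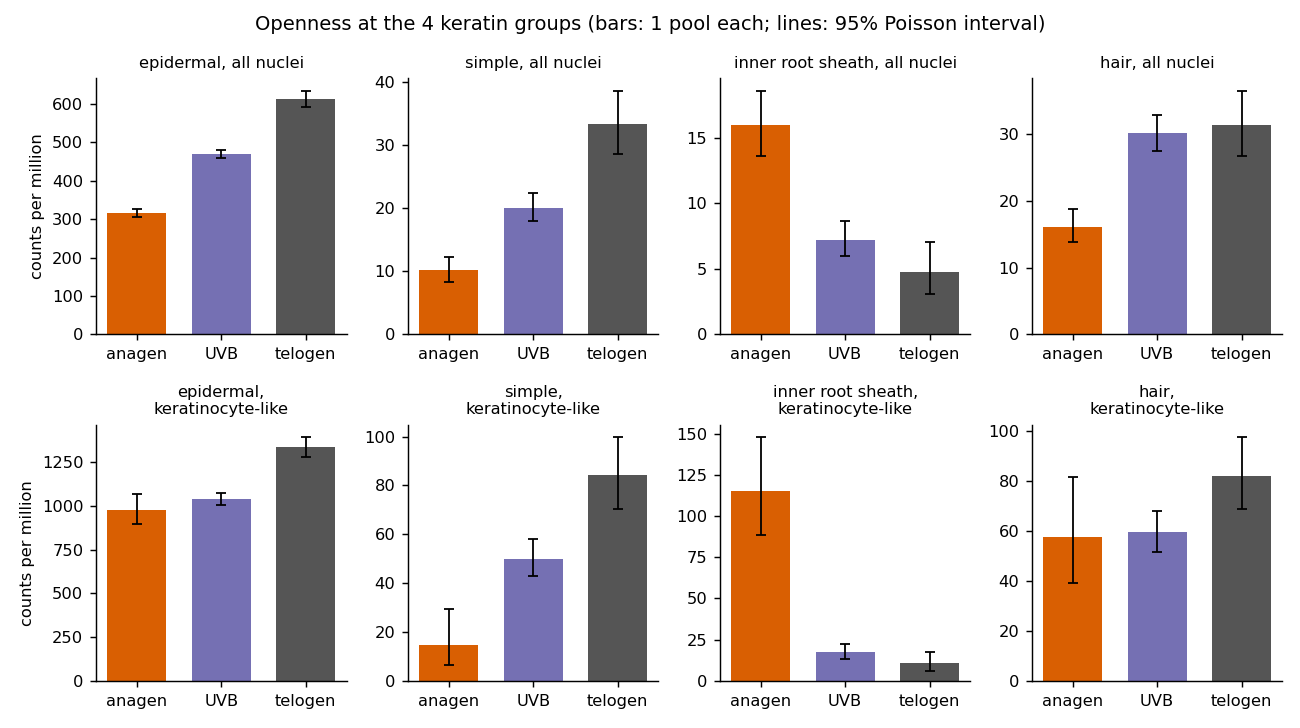
Summed CPM of the epidermal, simple, inner root sheath and hair keratins in anagen, UVB and telogen, over all nuclei (top) and within keratinocyte-like nuclei (bottom); each bar is 1 pool and lines are 95% Poisson intervals. Axes differ between panels; the inner root sheath sum stood at 115.4 CPM in anagen keratinocyte-like nuclei and 10.8 CPM in telogen ones.

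Within keratinocyte-like nuclei, the epidermal sum was again lower in anagen and the inner root sheath sum higher. The epidermal sum was 978.7 CPM in anagen and 1336 CPM in telogen, a ratio of 0.733 (0.665 to 0.807). The inner root sheath sum was 115.4 CPM in anagen and 10.8 CPM in telogen, from 62 and 17 counts, a ratio of 10.7 (6.19 to 19.6), and Krt27, with 38 and 11 of these counts, was the only gene of that group with 30 counts. Simple keratins had 14.9 CPM in anagen and 84.2 CPM in telogen, from 8 and 133 counts (ratio 0.177, 0.0747 to 0.358). Hair keratins had 57.7 and 82.3 CPM, and the interval of that ratio (0.457 to 1.04) included 1. Because cluster 10 held 71.7% of these nuclei in anagen and 22.6% in telogen, the same values were taken inside cluster 10. There the inner root sheath ratio was 5.49 (2.61 to 13.3), from 60 anagen and 8 telogen counts, and the epidermal ratio was 0.960 (0.826 to 1.12). The simple keratin ratio was 0.133 (0.0455 to 0.321), from 6 anagen and 33 telogen counts, and the hair keratin ratio was 0.416 (0.244 to 0.694).

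Among 18 keratins with at least 30 counts in these nuclei, 3 were 2-fold or more higher in anagen (Krt27, Krt42 and Krt17), against 7.42% of all genes. A further 10 were 2-fold or more lower, against 10.2% of all genes, so that of 11 epidermal genes 5 were lower and 2 higher, and the median ratio was -1.35 on the log2 scale, against -0.07 over all genes. Krt27 had 70.7 CPM in anagen and 6.97 CPM in telogen, a ratio of 10.1 (5.08 to 22.0), and 3.97 (1.75 to 10.5) inside cluster 10. Leaving out a tag number in turn gave Krt27 ratios of 7.66 to 16.7. Krt28, a type I inner root sheath keratin, had 12 counts in anagen and 0 in telogen keratinocyte-like nuclei. This is a level at least 11.8-fold higher against 3 counts over the group, on too few counts for a call. Inside cluster 10, with the same 12 and 0 counts, it was at least 2.93-fold higher by that rule. These folds are set by the 3 counts, and the intervals began lower, at 8.16 and 2.03.

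Krt17 and Krt42, neighbouring type I genes, share 2 features. Krt17 is known from hair follicle and wounded epidermis. Krt42 had 117.2 CPM in anagen and 36.1 CPM in telogen (ratio 3.25, 2.23 to 4.73), and Krt17 had 156.3 and 77.9 CPM (ratio 2.01, 1.50 to 2.67). Without the shared features, Krt42 was at 52.1 CPM in anagen and 6.33 CPM in telogen, a ratio of 8.23 (3.88 to 18.98). Krt17 was then at 91.2 and 48.1 CPM, a ratio of 1.89 (1.29 to 2.75), which is under the 2-fold mark. Its call was also lost with any of 7 tag numbers left out, to a lowest ratio of 1.67 without anagen tag number 7. Inside cluster 10, with the shared features kept, the ratio was 2.49 (1.38 to 4.76) for Krt42 and 1.77 (1.11 to 2.92) for Krt17. Without them, Krt17 was there at a ratio of 2.66 (1.34 to 5.75), and Krt42 had 28 anagen and 0 telogen counts.

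The lower keratins in anagen keratinocyte-like nuclei included 3 suprabasal (Krt10, Krt1, Krt77) and 3 simple ones (Krt19, Krt7, Krt8). Krt1 had 5.58 CPM in anagen and 55.7 CPM in telogen (3 and 88 counts; ratio 0.100, 0.0203 to 0.302). Krt10 had 29.8 CPM in anagen and 89.9 CPM in telogen (ratio 0.331, 0.184 to 0.556). Inside cluster 10 the Krt1 counts were 3 in anagen and 5 in telogen (ratio 0.439, 0.0681 to 2.26), and Krt10 had 37.6 CPM in anagen and 70.7 CPM in telogen (ratio 0.532, 0.261 to 1.06). Both intervals included 1 there. Simple Krt8 and Krt7 had 2 counts each in anagen, against 63 and 35 in telogen (ratios 0.0933, 0.0111 to 0.351, and 0.168, 0.0196 to 0.653). Krt15, a basal keratin also known from the bulge where follicle stem cells lie, had 33.5 CPM in anagen and 103.9 CPM in telogen (ratio 0.322, 0.186 to 0.526). It was also lower inside cluster 10, at 25.8 CPM in anagen and 96.4 CPM in telogen. Krt5 stayed within counting error, at 117.2 CPM in anagen and 91.2 CPM in telogen (ratio 1.29, 0.940 to 1.74), while its partner Krt14 had 91.2 and 178.0 CPM (ratio 0.512, 0.370 to 0.696). Krt33a was called lower on 5 anagen counts, with an interval (0.136 to 1.15) that included 1, and its call was lost without any of 4 tag numbers (0.580 without anagen tag number 4).

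**Figure D4:**
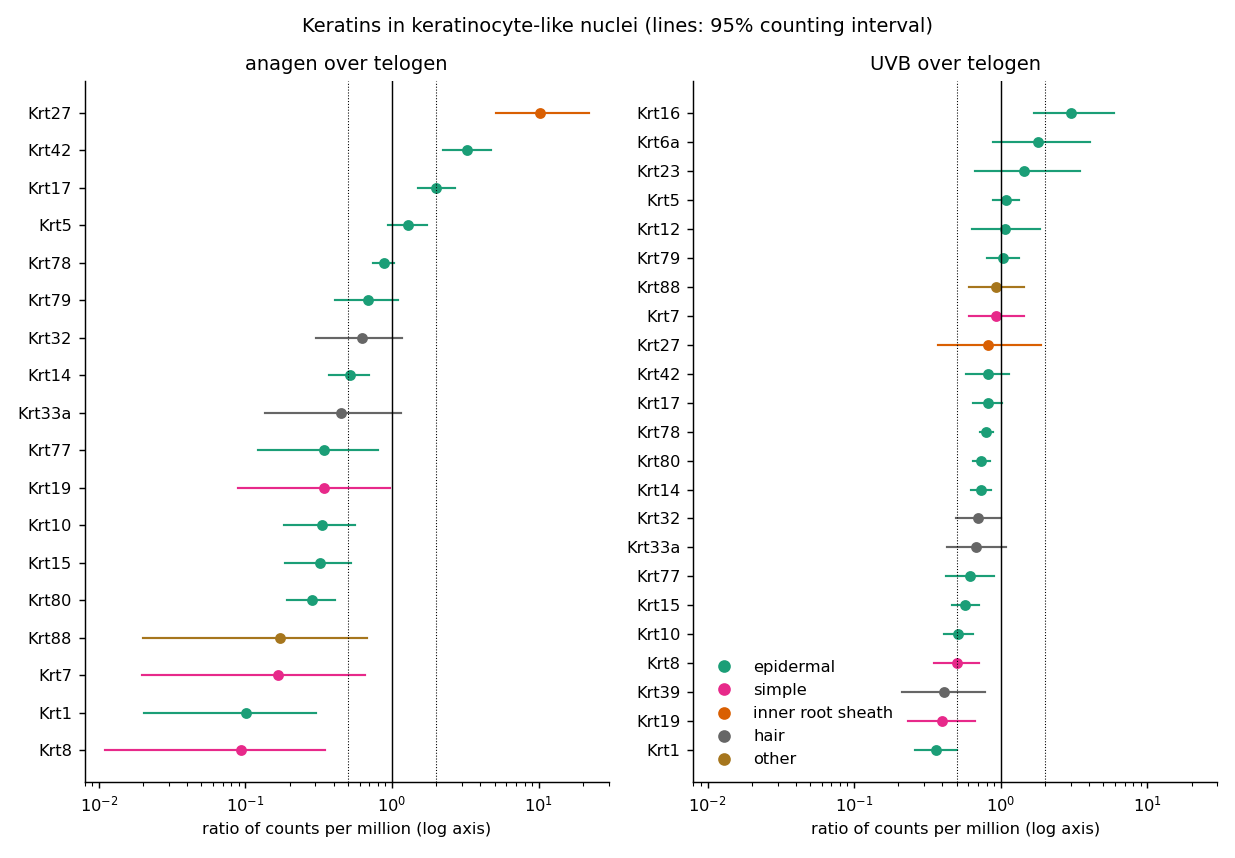
Ratio of CPM in keratinocyte-like nuclei for each keratin with at least 30 counts, anagen over telogen (left) and UVB over telogen (right), on a log axis; points are ratios, lines 95% counting intervals, dotted lines the 2-fold marks. Krt27 (10.1), Krt42 and Krt17 lay past the upper mark in anagen, and Krt16 (3.01) in UVB.

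Genes that build or control the keratin network were counted in the same way, against 7.42% of all genes 2-fold or more higher and 10.2% lower. Of 13 desmosome genes, which anchor keratin filaments at cell contacts, 3 were 2-fold or more higher in anagen keratinocyte-like nuclei and none was lower. These were Pkp2, Dsg3 and Dsg4, a desmoglein of the hair shaft, with ratios of 2.55, 2.38 and 2.64. Of 11 measured hair and inner root sheath regulators, 4 were higher (Hoxc13, ratio 3.06; Msx1, 7.10; Lef1, 3.72; Dlx3, 3.10) and 1 was lower (Gata3, 0.342). Hoxc13, a direct regulator of hair keratin genes, had 94.9 CPM in anagen and 31.0 CPM in telogen. None of 13 epidermal regulators reached 2-fold. Trp63, the master factor of stratified epithelium, had 232.6 CPM in anagen and 213.4 CPM in telogen. In these lists, Trp63, Grhl2, Dsp, Dsg3, Dsc3, Perp, Itga6, Itgb4 and Col17a1 were also markers that named the keratinocyte-like class. Their levels inside the class are therefore a description and not independent of that naming. Of 8 cornified envelope genes, Ivl and Tgm3 were higher and Tgm5 and Sbsn lower, and of 6 hemidesmosome genes none reached 2-fold. Over all nuclei, where 5.74% of all genes were 2-fold or more higher and 7.05% lower, 9 of the 13 desmosome genes were lower, Dsg4 among them (ratio 0.425), and none was higher. Of 12 hair and inner root sheath regulators there, 4 were lower (Foxn1, Msx2, Gata3 and Lhx2) and 1, Lef1, was higher (ratio 2.58). Of 13 epidermal regulators over all nuclei, 6 were lower (Trp63, Ovol1, Grhl2, Grhl3, Tfap2c and Zfp750) and 0 higher. Of 8 cornified envelope genes, 3 were lower (Tgm1, Tgm5 and Sbsn) and 0 higher. Of 6 hemidesmosome genes, Dst was higher and Itga6 lower. The share of keratinocyte-like nuclei and the shares of their clusters moved with these values, and their part was not tested.

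After UVB, epidermal and simple keratins were lower than in telogen. Over all nuclei, the epidermal sum was 469.0 CPM in UVB and 612.3 CPM in telogen (ratio 0.766, 0.735 to 0.798), and simple keratins had 20.1 and 33.3 CPM (ratio 0.603, 0.500 to 0.729). Hair keratins were at 30.2 CPM in UVB and 31.4 CPM in telogen, and inner root sheath keratins at 7.23 and 4.78 CPM, with an interval of the ratio (0.975 to 2.43) that included 1. Without UVB tag number 19, the epidermal ratio was 0.496 and the simple ratio 0.376. Of 29 keratins with at least 30 counts, 4 were 2-fold or more higher (Krt40, Krt87, Krt71 and Krt16), against 3.93% of all genes. A further 7 were 2-fold or more lower (Krt27, Krt39, Krt15, Krt19, Krt1, Krt77 and Krt4), against 5.57% of all genes. Only 6 of these 11 calls held with every tag number left out in turn. Krt4 lost its call with any of 7 left out, Krt27 with any of 6, Krt15 with any of 3, and Krt77 and Krt16 with either of 2.

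Within keratinocyte-like nuclei, the epidermal sum was 1040 CPM in UVB and 1336 CPM in telogen (ratio 0.779, 0.738 to 0.822). Simple keratins had 50.1 CPM in UVB and 84.2 CPM in telogen (ratio 0.595, 0.472 to 0.751), and hair keratins 59.5 and 82.3 CPM (ratio 0.723, 0.578 to 0.907). Inner root sheath keratins had 17.4 and 10.8 CPM, with an interval (0.930 to 2.95) that included 1, and this ratio changed direction as a median over tag numbers. Inside cluster 3 the epidermal, simple and hair sums were each lower in UVB. In cluster 7 the epidermal sum was lower, but hair keratins had 57.7 CPM in UVB and 17.1 CPM in telogen (73 and 4 counts). Simple keratins there had 38.7 and 38.6 CPM. In cluster 10 the simple and hair sums were lower, and the epidermal sum was 989.1 CPM in UVB and 986.4 CPM in telogen. Over keratinocyte-like nuclei together, Krt16 was the only keratin of 23 that was 2-fold or more higher after UVB, against 6.28% of all genes. Krt16 is known to be induced in injured and hyperproliferative epidermis. It had 24.8 CPM in UVB and 8.23 CPM in telogen, from 87 and 13 counts, a ratio of 3.01 (1.67 to 5.88). Inside cluster 3 the values were 30.3 and 4.83 CPM, a ratio of 6.26 (2.54 to 20.0) on 5 telogen counts. Cluster 7 went the other way, at 15.0 CPM in UVB (19 counts) and 34.3 CPM in telogen (8 counts), under 30 counts and with an interval of the ratio (0.183 to 1.16) that included 1. Cluster 10 had 10 UVB counts and 0 telogen counts. UVB tag number 19 held 82 of the 101 Krt16 counts in all UVB nuclei. Without it, the ratio was 2.50 in keratinocyte-like nuclei and 0.905 over all nuclei, where the call was lost and the direction turned. Krt6a, which is induced together with Krt16 in wounds, had 11.4 CPM in UVB and 6.33 CPM in telogen, with an interval of the ratio (0.884 to 4.03) that included 1. Krt17 had 63.2 CPM in UVB and 77.9 CPM in telogen, a ratio of 0.811 (0.648 to 1.02).

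Lower keratins after UVB were counted in the same nuclei. A suprabasal gene (Krt1), 2 simple ones (Krt19 and Krt8) and a hair keratin (Krt39) were 2-fold or more lower, against 3.54% of all genes. Krt1 had 20.2 CPM in UVB and 55.7 CPM in telogen (ratio 0.363, 0.262 to 0.502), and inside cluster 3 the ratio was 0.335 (0.230 to 0.484). Krt10 had 46.1 CPM in UVB and 89.9 CPM in telogen, a ratio of 0.513 that missed the mark. Krt8 stood at a ratio of 0.500, just past the mark, and its call was lost with any of 18 tag numbers left out. Krt39 lost the call without telogen tag number 5 (0.524). Basal Krt5 had 98.8 CPM in UVB and 91.2 CPM in telogen, and Krt14 had 130.4 and 178.0 CPM. The median ratio of the 23 genes was -0.33 on the log2 scale, against -0.11 over all genes. No desmosome, hemidesmosome, envelope or epidermal regulator gene reached 2-fold here, and of the hair regulators Msx2 was lower (ratio 0.450). Some of the desmosome, hemidesmosome and epidermal regulator genes had also served to name the class.

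After UVB, the ratio to telogen was similar in clusters 7 and 3 for Krt79, whereas for Krt17 it differed between clusters. In cluster 7, Krt79 had 154.8 CPM in UVB and 317.1 CPM in telogen (ratio 0.488, 0.372 to 0.647), and Krt17 had 56.1 and 192.8 CPM (ratio 0.291, 0.197 to 0.432). In cluster 3, Krt79 had 8.88 CPM in UVB and 18.4 CPM in telogen (ratio 0.483, 0.236 to 0.982), whereas Krt17 had 68.4 and 50.3 CPM (ratio 1.36, 0.980 to 1.91). In cluster 10, Krt79 had 5 UVB and 2 telogen counts, and Krt17 had 60.5 CPM in UVB and 83.5 CPM in telogen (ratio 0.724, 0.383 to 1.35). The differences between clusters were not tested. Over keratinocyte-like nuclei together, Krt79 was at 62.1 CPM in UVB and 60.2 CPM in telogen. Cluster 7 held 34.8% of keratinocyte-like nuclei in UVB and 21.3% in telogen.

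A few keratins were most open outside keratinocyte-like nuclei. Krt71, a type II inner root sheath keratin, had 16.3 CPM in cluster 6, which is melanocyte-like, and 2.67 CPM in all nuclei outside that cluster. Keratinocyte-like cluster 10 came next at 8.43 CPM on 9 counts, and its interval (3.86 to 16.0) overlapped that of cluster 6 (12.8 to 20.5). In anagen alone, Krt71 had 16.0 CPM in cluster 6 and 11.7 CPM, from 5 counts, in cluster 10. Of its 84 anagen counts, 68 lay in cluster 6, in which 776 of 821 nuclei were from anagen. These counts made up much of the anagen inner root sheath sum over all nuclei: of 166 counts, 82 were in melanocyte-like nuclei, 70 of them at Krt71, and 62 were in keratinocyte-like nuclei, 38 of them at Krt27. The 4 Krt71 regions were used differently. In melanocyte-like nuclei, 52 and 28 of the counts lay 1289 and 759 bases inside the gene from the start, at chr15:101741558-101742058 and chr15:101742088-101742588. In cluster 10, 8 of 9 counts lay at chr15:101736668-101737168, 6179 bases inside the gene. The Krt71 ratio of anagen to telogen over all nuclei was 6.03 (2.80 to 15.5) on 7 telogen counts, and 3.49 without anagen tag number 5, which held 49 of the 84 counts.

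Krt87, a hair keratin, was open in melanocyte-like cluster 1 (15.8 CPM), in Schwann-like cluster 8 (14.6 CPM) and in melanocyte-like cluster 6 (7.81 CPM), against 1.78 CPM in keratinocyte-like nuclei. Of its 189 counts, 155 lay in a single region, chr15:101437709-101438209, inside the gene. Over all nuclei it had 8.10 CPM in UVB and 2.10 CPM in telogen, a ratio of 3.85 (2.08 to 7.89). Inside cluster 1, however, it had 16.8 CPM in UVB (105 counts) and 12.0 CPM in telogen (4 counts), and cluster 1 held 44.15% of UVB nuclei and 10.97% of telogen nuclei.

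Krt40, a hair keratin, had 64.0 CPM in Schwann-like cluster 8 (95% Poisson interval 50.9 to 79.3) and 1.44 CPM in all nuclei outside it, the widest difference of the 3 genes at a ratio of 44.4 (30.4 to 65.5). A count was found in 39 of the 609 nuclei of the cluster. All 127 counts came from the only feature of the gene, chr11:99539783-99540283, which is inside the gene 3187 bases from its start and in no other gene's window. Over all nuclei Krt40 had 6.24 CPM in UVB and 1.53 CPM in telogen (ratio 4.08, 1.99 to 9.70), and UVB tag number 24 held 40 of its 101 UVB counts. Inside cluster 8 it had 77.6 CPM in UVB (79 counts) and 30.2 CPM in telogen (4 counts). These genes and clusters were picked for their height, so the ratios between clusters are descriptions.

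**Figure D5:**
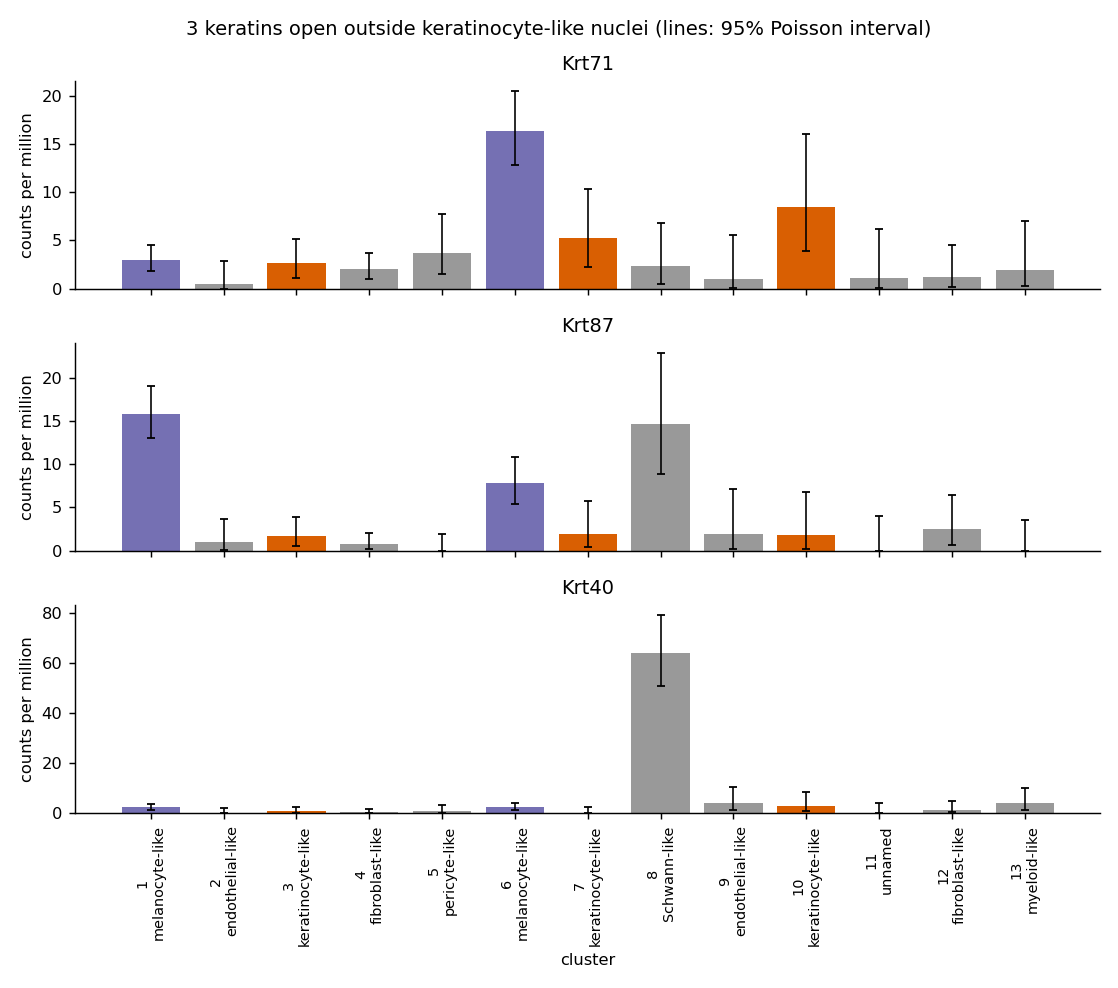
CPM at Krt71, Krt87 and Krt40 in each of the 13 clusters, 3 conditions together, with 95% Poisson intervals; orange bars are keratinocyte-like, purple melanocyte-like and grey other clusters. Krt71 was highest in melanocyte-like cluster 6, Krt87 in melanocyte-like cluster 1 with Schwann-like cluster 8 close to it, and Krt40 in Schwann-like cluster 8 (64.0 CPM).

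Tag numbers differed widely within a condition. Among tag numbers with at least 50 nuclei, the keratinocyte-like share ran from 6.13% to 23.9% in anagen (7 tag numbers), from 0.658% to 38.2% in UVB (15) and from 10.1% to 45.0% in telogen (10). Among those with at least 20 keratinocyte-like nuclei, the inner root sheath level in these nuclei ran from 16.6 to 182.9 CPM in anagen (5 tag numbers, median 109.7), from 0 to 19.3 CPM in UVB (7, median 14.3) and from 0 to 50.9 CPM in telogen (9, median 15.3). Anagen and telogen overlapped, although the anagen median exceeded the highest telogen value. The epidermal level in these nuclei ran from 679.2 to 1232 CPM in anagen, from 530.4 to 1312 CPM in UVB and from 814.6 to 1891 CPM in telogen, which overlapped throughout.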

How the data were processed

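Single-nucleus ATAC-seq counts open-chromatin reads per nucleus. The deposited files gave raw counts per 500 bp feature and nucleus for telogen, anagen and UVB separately. The submitters' processing notes name Bowtie2, SAMtools, MACS2 and mm10, without saying what each was used for or its version. Entries were mostly even (61.1% had the value 2 and 31.0% the value 1), so reads came largely in pairs and counting intervals are too narrow. Barcodes listed more than once in a condition were counted once, by the copy with most counts. No doublets were called. Coordinates of features are given as deposited, and whether they count from 0 or 1 is not given in the sources used here.

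Features overlapping a RefSeq (GRCm38.p6) gene body plus 2 kb were summed per gene and divided by all counts of the nuclei considered, giving CPM. Nuclei were clustered (TF-IDF on features open in at least 20 nuclei, the most open 1% left out, 30 components, 15 neighbours, Leiden resolution 0.6) without the 171 features in keratin windows. Clusters were named from markers without keratins: the best list needed at least 4 markers 2-fold higher and a lead of 0.3 on the log2 scale, lists under 6 genes were not used, and these limits were settled after the list scores were seen. Ratios carry exact conditional binomial 95% intervals. These were tried on simulated counts drawn independently, as the intervals assume, so that trial cannot show how they do on paired reads. A count of 0 was replaced by 3 counts over the group. The call was a ratio of 2 or more, or 0.5 or less, with at least 30 counts over both conditions. Each condition is 1 pool, so there is no test between conditions. Any keratin could be named, by role or as among the 5 highest or lowest of a comparison; partner genes came from lists of adhesion, envelope and regulator genes. Members and lists were chosen with earlier results of these data known. Python 3.11.15, scipy 1.17.1, igraph 0.11.9 and leidenalg 0.10.2 were used.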

Additional observations from a re-analysis of the deposited data

How the results depend on the processing

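Group ratios were recomputed under 140 combinations of result and alternative, and 121 stayed inside the counting interval of the reported value, 19 moved outside it and 0 changed direction beyond it. Values here are log2 ratios. For anagen over telogen in all nuclei, the epidermal ratio (-0.95) was -0.86 with repeat barcodes kept, -0.85 over gene bodies alone, -0.62 without nuclei above 3 times the median depth, -0.82 as a median over tag numbers, -0.81 on housekeeping gene ends as the scale and -1.62 without Krt78 and Krt80. For UVB over telogen in all nuclei, the epidermal ratio (-0.38) was -0.27 with repeat barcodes, -0.84 over tag numbers, -0.28 on the housekeeping scale, -0.60 without Krt78 and Krt80 and -1.01 without UVB tag number 19, and the simple ratio (-0.73) was -1.49 over tag numbers and -1.41 without tag number 19. In keratinocyte-like nuclei, the anagen epidermal ratio (-0.45) was -0.30 on the housekeeping scale. The UVB epidermal ratio there (-0.36) was -0.48 without very deep nuclei, -0.10 on the housekeeping scale and -0.50 without tag number 19, and the UVB hair ratio (-0.47) was -0.99 over tag numbers and -0.96 without tag number 19. The UVB inner root sheath ratio there (0.69) fell to -0.10 over tag numbers and -0.09 without very deep nuclei, inside its counting interval. The cause was not tested. The housekeeping scale moved every ratio by 0.14 (anagen) and 0.10 (UVB) over all nuclei, and by 0.15 and 0.26 in keratinocyte-like nuclei. Leaving out Krt78 and Krt80, UVB tag number 19, the features shared by Krt17 and Krt42, or each tag number in turn was chosen after seeing the data. No paired analysis was possible because each condition is 1 pool, and no replicate could be left out for the same reason. Depth limits some group ratios in keratinocyte-like nuclei, with 17 telogen counts for inner root sheath and 8 anagen counts for simple keratins.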
